A study of Mus musculus with 2 samples.

Results

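The genes described here are the 50 mouse genes, of 32285 in the deposited matrices, whose symbols start with Psma to Psmg and a number; pseudogene, Rik and antisense symbols were left out. They were grouped by textbook role into 7 core alpha subunits, 4 structural and 3 catalytic core beta subunits, 3 immunoproteasome subunits, 2 tissue-specific core subunits, 6 ATPases and 3 other proteins of the base, 8 lid proteins, 6 other activators and inhibitors, and 7 assembly chaperones. Psmc3ip, a meiotic recombination factor, shares only the name. All 50 had a row in both libraries, and 47 had enough reads for the comparison of cell classes; Psma8, Psmb11 and Psme2b did not.

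The proteasome degrades proteins marked with ubiquitin. Its barrel-shaped core particle holds the proteolytic sites, and the regulatory particle, built from a base and a lid, binds ubiquitin chains, removes them and threads the substrate into the core. Immune cells, and other cells exposed to interferon, exchange the 3 catalytic beta subunits for Psmb8, Psmb9 and Psmb10, which changes the peptides available for MHC class I. Photoreceptors renew part of their outer segments each day and are known for a heavy load on protein quality control.

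The data were single-cell RNA counts from mouse retina, a droplet assay in which each RNA molecule carries a unique molecular identifier (UMI). Mice were exposed to short-wavelength light or to full-spectrum white light from postnatal day 14 for 2 weeks before the retinas were taken, and the comparison asks how the spectrum of light bears on the maturing retina. The labels give no strain, genotype, sex or number of animals for either group. Each condition had 1 library, so no difference between light conditions has a replicate check, no test of it was possible, and intervals (all 95%) cover counting error only.

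The libraries held 16106 and 5707 barcodes (short-wavelength light first here and below) with 51681469 and 20952589 UMIs, and 26 barcode sequences occurred in both. Cells were assigned to classes by marker UMIs, with no proteasome gene used, which gave 12630 and 4688 rods, 399 and 170 cones, 115 and 46 rod bipolar cells, 98 and 44 Müller glia, and 45 and 23 microglia. Median depth was 2303.5 and 2696 UMIs in rods and 5140 to 8701 in the other classes. The gate used the defining markers that follow, so their levels describe it and are no independent check of the class names: the rod transducin gene Gnat1 stood at 3230 and 3516 UMIs per 1000000 UMIs of the class (CPM) in rods, the cone arrestin Arr3 at 8119 and 7159 in cones, Prkca at 7007 and 7238 in rod bipolar cells, Glul at 6106 and 5293 in Müller glia, and C1qa at 3597 and 2811 in microglia. Rod RNA was present in every class, with Gnat1 between 509 and 1279 CPM outside rods. In Müller glia the endothelial and pericyte list summed to 1597 and 1466 CPM through 2 of its 7 genes, Flt1 and Pdgfrb, while Cldn5, Pecam1, Cdh5, Rgs5 and Kcnj8 had 0 UMIs. Of the astrocyte list Gfap had 1 and 0 UMIs there, S100b 3 and 2, and Aldh1l1 18 and 6, while Pax2 and Slc39a12 had 0. The pigment epithelium list summed to 298 and 411 CPM in Müller glia, mostly from Dapl1 at 287 and 325, with Ttr at 3 and 25 UMIs.

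The gate differs from the one first set down, which asked for 4 markers and 8 UMIs. Under that gate the cone class held 2243 and 1084 barcodes; Guca1a was found in 95% of all barcodes, Thrb in 77.7% and Gnb3 in 27.9%. Those markers were left out, and a minimum share of marker UMIs was added, after marker UMIs had been seen. Results for cones and rod bipolar cells depend on this choice, and core over regulatory values, counts of called members and light ratios under the first gate are given with the main ones; the summed CPM of the classes were not recomputed under it.

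Core particle RNA was highest in cones and rod bipolar cells and lowest in Müller glia in both libraries. The 14 constitutive core genes summed to 1717 and 2091 CPM in cones, 1726 and 1734 in rod bipolar cells, 1269 and 1364 in rods, 1158 and 1068 in microglia, and 863 and 832 in Müller glia. Intervals of cones and rod bipolar cells overlapped under short-wavelength light (1666 to 1770 and 1635 to 1821) and not under white light (2001 to 2184 and 1605 to 1870). In each library both classes lay above rods, and Müller glia lay below rods, beyond counting error. Microglia overlapped Müller glia under white light (917 to 1237 and 731 to 944) but not under short-wavelength light, and overlapped rods under short-wavelength light (1041 to 1283 and 1257 to 1280) but not under white light.

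The 17 genes of the regulatory particle varied less between the neuronal classes. They summed to 1347 and 1378 CPM in rods, 1511 and 1669 in cones, 1360 and 1407 in rod bipolar cells, 807 and 850 in Müller glia, and 1017 and 1074 in microglia. Rod bipolar cells thus lay within counting error of rods for this particle (1279 to 1445 against 1335 to 1359 under short-wavelength light), unlike for the core. The number of core UMIs per regulatory UMI was 0.942 (0.930 to 0.954) and 0.990 (0.971 to 1.01) in rods, 1.14 (1.09 to 1.19) and 1.253 (1.17 to 1.34) in cones, and 1.27 (1.17 to 1.38) and 1.23 (1.10 to 1.38) in rod bipolar cells. It is a ratio of RNA counts, not of proteins. In Müller glia (1.07 and 0.980) and microglia (1.14 and 0.994) the intervals held 1 in both libraries. With the first gate the cone values were 0.964 and 1.06, those of rod bipolar cells 1.16 and 1.11, and those of rods 0.956 and 1.01.

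**Figure D1:**
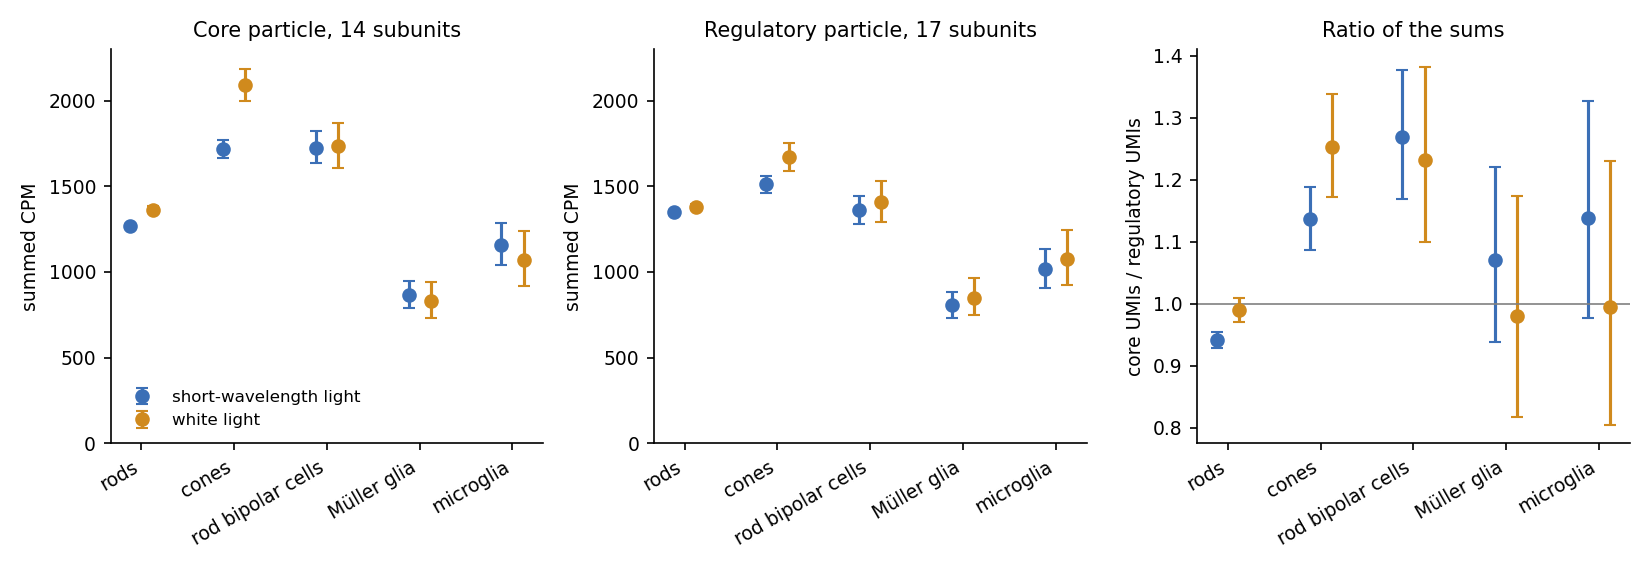
Summed CPM of the 14 core genes, summed CPM of the 17 regulatory particle genes, and core UMIs over regulatory UMIs, for 5 cell classes (horizontal axis) in the short-wavelength and white-light libraries (colours). Points are 1 library each, bars are 95% counting intervals, and the ratio axis does not start at 0; cones and rod bipolar cells lie above rods for the core in both libraries, and Müller glia lie below.

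Gene by gene, cones differed from rods in the direction of more core RNA. This was tested with edgeR's quasi-likelihood test on 10 class sums, 5 classes in 2 libraries, with Benjamini-Hochberg adjustment over 15866 genes. Each class has 2 sums, 1 per light condition, and the library was a covariate. The p-values thus rest on how far class differences disagreed between these 2 libraries, with the spread estimated over all 5 classes together. They do not measure the spread between animals. Of the 14 core genes 12 were higher in cones (adjusted p under 0.05) and 0 lower, against a background of 19.0% of all tested genes higher and 18.4% lower. Over the core the median log2 fold change was 0.69, against −0.13 over all genes. The regulatory particle had 9 of 17 genes higher and 1 lower, with a median of 0.33. Mitochondrial RNA, at 2.75% and 3.1% of UMIs in cones against 0.760% and 0.894% in rods, differed in the same direction, and Malat1, a nuclear RNA, was lower at 4.30% and 3.65% against 5.63% and 5.08%; their part in the result was not tested.

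Psma4, an alpha-ring subunit, was measured in cones at 97.4 and 130 CPM against 53.2 and 59.6 in rods, a log2 fold change of 1.04 (adjusted p = 2.16e-16). Both cone values lay above both rod values. Psmc2, an ATPase of the base, had 105 and 138 CPM in cones against 60 and 64.7 (log2 fold change 0.99, adjusted p = 9.53e-16). All 3 catalytic subunits were also higher in cones: Psmb5, with the chymotrypsin-like site, at 135 and 186 CPM against 83.1 and 88.9 in rods (0.91, adjusted p = 8.67e-14), Psmb7, with the trypsin-like site, at 60.8 and 88.8 against 39.6 and 46.6 (0.81, adjusted p = 5.31e-08), and Psmb6, with the caspase-like site, at 150 and 162 against 108 and 111 (0.56, adjusted p = 1.94e-05). In none of the 3 did the 2 classes overlap. Psmg4, a chaperone of core assembly, was higher at 29.0 and 33.0 CPM against 18.7 and 16.6 (0.82, adjusted p = 0.000197). The lower members were Psme4, which encodes the nuclear activator PA200, at 101 and 76.4 CPM against 175 and 174 (−0.87, adjusted p = 4.83e-10), and the lid subunit Psmd13 at 45.9 and 33.0 against 64.1 and 59.0 (−0.52, adjusted p = 0.00241). The Psmd13 call was lost with DESeq2 (adjusted p = 0.124), with a gate of 6 markers and 15 UMIs (adjusted p = 0.0731 in edgeR) and with the first gate (adjusted p = 0.841), and the Psme4 call with the first gate (adjusted p = 0.639). Psme4 and Psmd13 thus differed from rods in the opposite direction to most of the core. With the first gate, 2 members were higher in cones and 0 lower, and the core median was 0.07, against −0.01 over all genes. Of all 15108 genes tested under that gate, 1158 were higher and 262 lower.

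Rod bipolar cells shared the higher core RNA with cones but not most of the regulatory particle. Core genes were higher than in rods for 9 of 14 and lower for 0 (background 18.7% higher and 21.2% lower), with a median of 0.47 against −0.26 over all genes. For the regulatory particle 2 of 17 were higher, Psmd2 and Psmc4, and 1 lower, with a median of 0.15. Psma7 led the core at 177 and 177 CPM against 105 and 108 in rods (log2 fold change 0.74, adjusted p = 3.5e-06), followed by Psma2 at 165 and 172 against 97.6 and 108 (0.72, adjusted p = 1.05e-05) and Psmb1 at 145 and 203 against 105 and 109 (0.65, adjusted p = 8.91e-05). Psmb5 (0.60, adjusted p = 0.000698) and Psmb6 (0.49, adjusted p = 0.005) were higher as well, while Psmb7 was measured at 44.0 and 56.6 CPM against 39.6 and 46.6 (adjusted p = 0.517). Psmg4, the core chaperone that was higher in cones, had 31.0 and 36.0 CPM here (0.87, adjusted p = 0.00905). The ATPase Psmc6 was lower, at 147 and 113 CPM against 218 and 213 (−0.67, adjusted p = 9.52e-05), as were Psme4 (−0.47, adjusted p = 0.0108 in edgeR, 0.583 in DESeq2) and the assembly chaperone Psmg3 (−0.86, adjusted p = 0.0149). Psmc3ip had 1 and 2 UMIs in rod bipolar cells, 1.29 and 5.14 CPM against 19.0 and 17.3 in rods (−2.82, adjusted p = 3.68e-05). With the first gate, of 37 and 20 cells, 3 members were higher and 2 lower. Of all 15108 genes tested under that gate, 1579 were higher and 1456 lower. Mitochondrial RNA took 2.06% and 2.22% of UMIs in rod bipolar cells against 0.760% and 0.894% in rods, and Malat1 3.83% and 3.72% against 5.63% and 5.08%; their part in the result was not tested.

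Promoters were searched because most core genes lay on 1 side of rods together. RefSeq promoters (GRCm38.p6, 250 bases before the start) matched 42 of the 50 members. The antioxidant response element TGACNNNGC, known as a site of the factors encoded by Nfe2l1 and Nfe2l2, on either strand, was found in 5 of 42 (11.9%: Psmb5, Psmb6, Psmc6, Psmd12 and Psmd9) and in 11.5% of 27025 promoters. The interferon-stimulated response element, here 2 GAAA repeats with 2 bases between, on either strand, was found in 3 of 42 (7.14%: Psmb3, Psmd4 and Psmd9) and in 3.46% of all. CCAAT was found in 35.7% against 37.5%, and the GC box GGGCGG in 52.4% against 35.4%. The windows of Psmb8, Psmb9, Psma4, Psmb11, Psmd13 and Psme2b lie wholly in annotated exon (250 of 250 bases). They were kept in these counts, with Psmb9 among the CCAAT and GC box matches, Psmb11 among the CCAAT and Psma4 among the GC box matches. For these windows a match or its absence says little about a promoter. A match is a string of letters, not evidence of binding. Of the 5 members with TGACNNNGC, Psmb5 and Psmb6 were each called higher than in rods in 2 classes and lower in 1. Psmc6 was called lower in 3 classes, Psmd9 lower in 2, and Psmd12 higher in 1 and lower in 1. The promoters of the 2 catalytic subunits among them are shown with the TGACNNNGC match in capitals:
Psmb5 (chr14:54618023-54618245, minus strand, the 223 bases before the annotated start): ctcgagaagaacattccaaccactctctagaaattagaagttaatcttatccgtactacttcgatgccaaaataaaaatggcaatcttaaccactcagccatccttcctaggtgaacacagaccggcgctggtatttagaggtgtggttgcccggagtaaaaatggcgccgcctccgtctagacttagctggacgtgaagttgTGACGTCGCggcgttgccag
Psmb6 (chr11:70525107-70525356, plus strand, 250 bases): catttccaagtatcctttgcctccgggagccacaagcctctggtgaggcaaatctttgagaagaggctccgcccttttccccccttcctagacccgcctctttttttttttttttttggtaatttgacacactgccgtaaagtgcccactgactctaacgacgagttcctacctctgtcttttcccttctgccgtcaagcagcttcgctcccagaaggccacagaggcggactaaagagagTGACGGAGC
In both, the match lies near the end of the stretch next to the gene.

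Müller glia had less RNA of both particles than rods, as a share of all UMIs. Of the core genes 13 of 14 were lower than in rods and 0 higher, and of the regulatory particle 11 of 17 were lower and 0 higher (background 22.2% lower and 20.9% higher), with medians of −0.63 and −0.69 against −0.27 over all genes. Psma7 fell from 105 and 108 CPM in rods to 45.6 and 34.3 (log2 fold change −1.40, adjusted p = 9.06e-08). Psmc2 was at 25.6 and 27.4 CPM (−1.28, adjusted p = 5.4e-05), the lid subunit Psmd8 at 45.6 and 44.5 against 97.3 and 106 (−1.21, adjusted p = 2.65e-06), Psmg3 at 21.9 and 6.85 (−1.10, adjusted p = 0.00839) and Psmc3ip at 3.65 and 3.43 (−2.41, adjusted p = 0.00103). For each of these 5, both Müller glia values lay below both rod values. Psmg3 rested on 12 and 2 UMIs in Müller glia and Psmc3ip on 2 and 1, so the counting error of both is wide. Psmb5 (−0.67, adjusted p = 0.0106) and Psmb6 (−0.62, adjusted p = 0.00924) were lower, and Psmb7 was not called (−0.60, adjusted p = 0.096). Malat1 took 9.07% and 8.74% of UMIs in Müller glia against 5.63% and 5.08% in rods; its part in the result was not tested. DESeq2, whose size factors place the median of all genes at 0.21 in place of −0.27, called 4 members higher and 5 lower where edgeR called 4 and 29; over all 14635 genes it tested, DESeq2 called 3742 higher and 1472 lower. Relative to the median of all genes, the core median was −0.36 in edgeR and −0.50 in DESeq2.

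In microglia most constitutive subunits were not called in either direction. Of the core 0 of 14 were higher and 1 lower, and of the regulatory particle 0 of 17 were higher and 1 lower (background 18.3% higher and 20.8% lower). The core and regulatory medians, −0.17 and −0.36, lay above the all-gene median of −0.60; with DESeq2 they were 0.17 and −0.03 against 0.21, so the direction against all genes turned with the scaling. The 2 lower subunits were Psma3, at 125 and 155 CPM against 233 and 253 in rods (−0.82, adjusted p = 0.000625), and Psmc6, at 83.1 and 101 against 218 and 213 (−1.254, adjusted p = 7.73e-07). Psmc6 was the only member called lower than in rods in 3 of the 4 classes. Chaperones of base assembly went both ways: Psmd5 was lower at 19.2 and 17.9 CPM against 55.1 and 55.1 (−1.55, adjusted p = 0.00112), Psmd9 lower at 19.2 and 41.8 against 76.0 and 78.5 (−1.50, adjusted p = 0.000163), and Psmd10 (gankyrin) higher at 38.4 and 47.7 against 14.6 and 13.8 (1.54, adjusted p = 0.00112). The core chaperone Psmg2 was lower (−0.86, adjusted p = 0.0335). Psmd10 here, Psmd2 and Psmc4 in rod bipolar cells and Psmf1 in Müller glia were named after their values were seen. The 3 constitutive catalytic subunits were not called, with Psmb5 at 73.5 and 41.8 CPM (adjusted p = 0.224), Psmb6 at 102 and 95.5 (adjusted p = 0.721) and Psmb7 at 16.0 and 53.7 (adjusted p = 0.325).

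**Figure D2:**
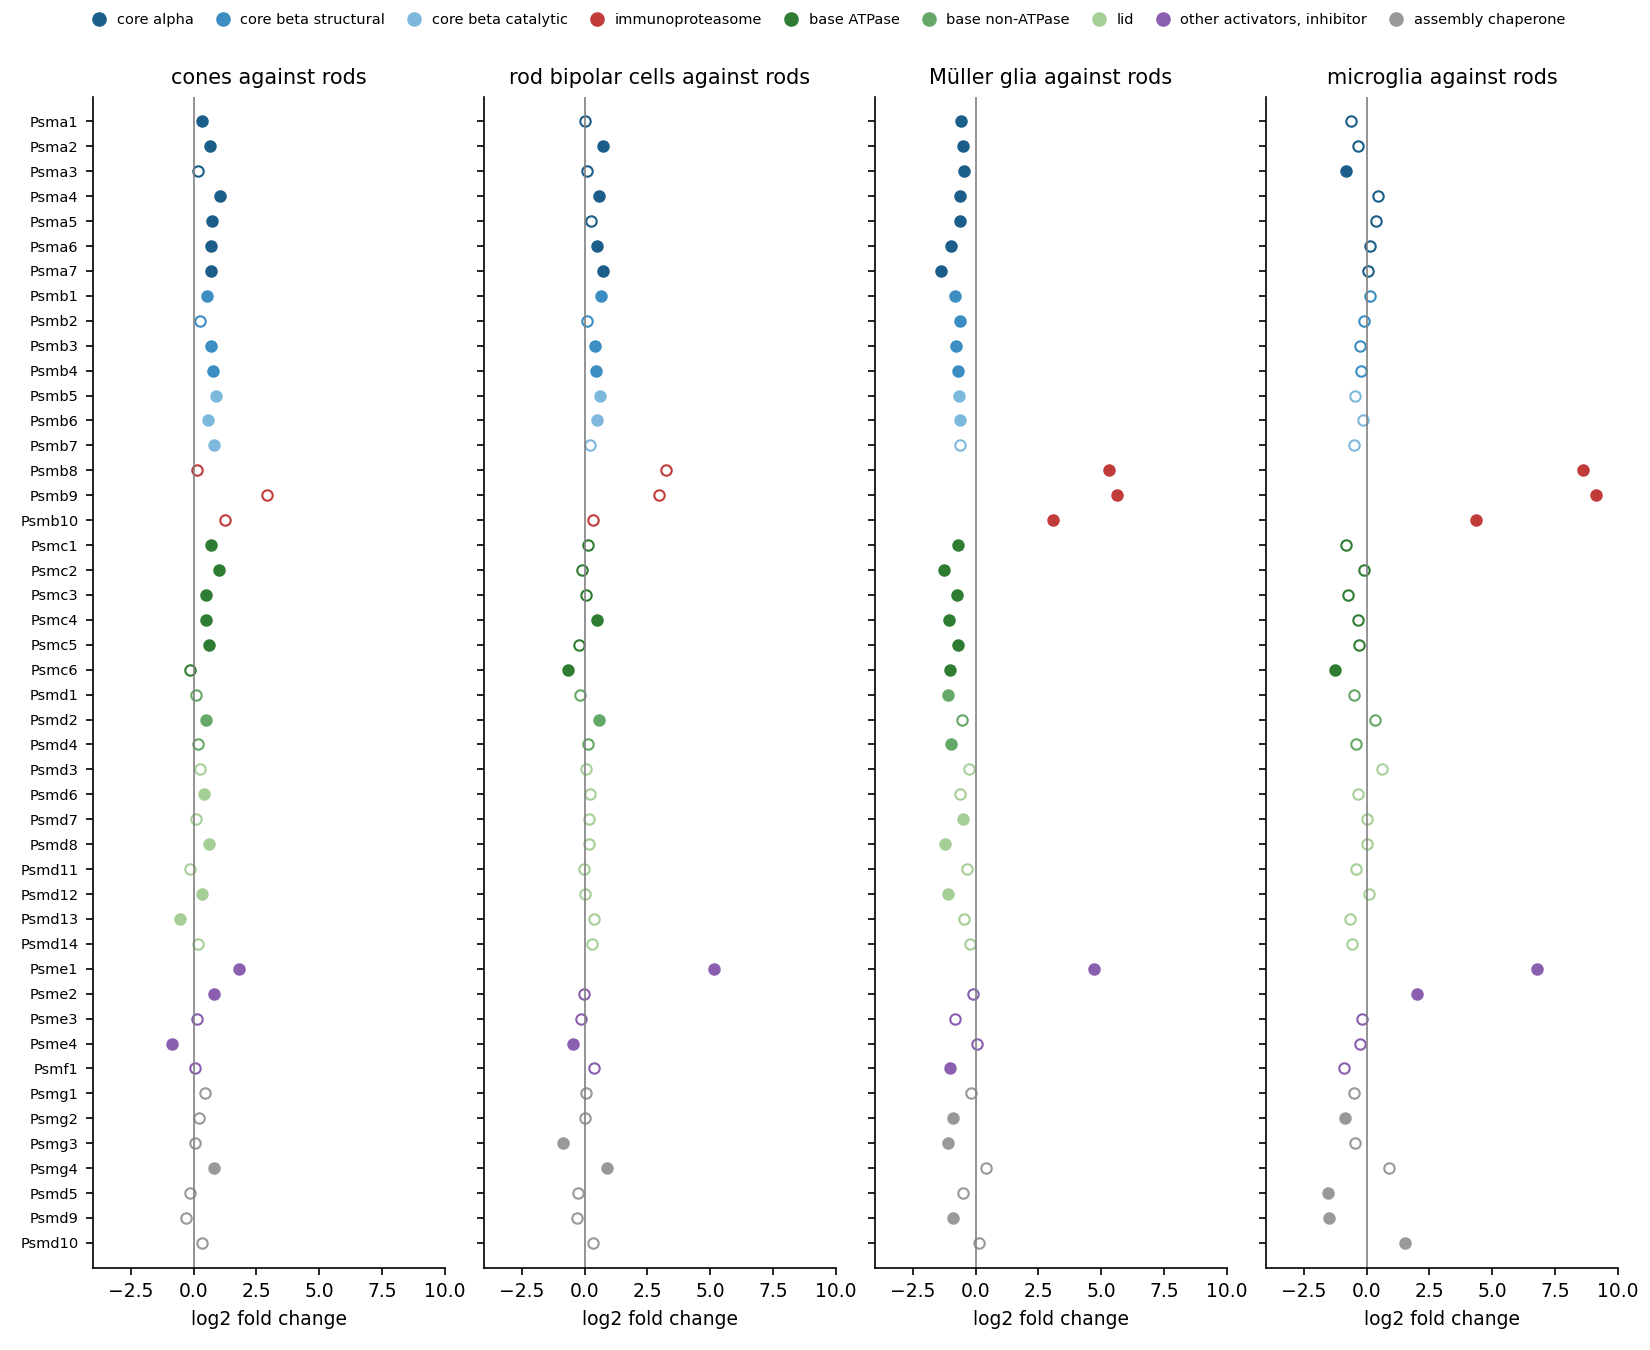
Log2 fold change against rods (horizontal axis, 1 panel per class) of the 46 tested members other than Psmc3ip, coloured by role. Filled points passed an adjusted p of 0.05 in edgeR and open points did not. Core genes lie to the right in cones and to the left in Müller glia. Psmb8, Psmb9, Psmb10 and Psme1 lie far to the right in microglia and Müller glia. In rod bipolar cells Psme1 also lies far to the right, and Psmb8 and Psmb9 lie to the right uncalled.

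All 3 immunoproteasome genes were called higher than in rods in microglia and in Müller glia. Psmb8 and Psmb9 lie near each other in the MHC region of mouse chromosome 17 (mm10, 34197721 to 34201454 and 34181987 to 34187764). Psmb10 lies on chromosome 8 (105935735 to 105938444). Psmb8 was measured at 144 and 53.7 CPM in microglia and at 16.4 and 3.43 in Müller glia, against 0.256 and 0.262 in rods. That was a log2 fold change over rods of 8.61 in microglia (adjusted p = 7.37e-42) and 5.32 in Müller glia (adjusted p = 1.87e-07). Rods held 9 and 4 Psmb8 UMIs in all, Müller glia 9 and 1, microglia 45 and 9. Psmb9 was measured at 76.7 and 35.8 CPM in microglia (9.14, adjusted p = 1.53e-25). In Müller glia Psmb9 had 5 and 0 UMIs (5.61, adjusted p = 0.000289), and under white light it also had 0 UMIs in rods, so that call rests on the short-wavelength library. Psmb10 was measured at 60.8 and 11.9 CPM in microglia (4.36, adjusted p = 3.01e-12) and 12.8 and 27.4 in Müller glia (3.07, adjusted p = 8.07e-06), against 1.88 and 2.36 in rods. In cones and rod bipolar cells none of the 3 was called. Psmb8 in rod bipolar cells had 1 and 2 UMIs (adjusted p = 0.0589 in edgeR). Under white light Psmb8 and Psmb9 had 2 and 1 UMIs in rod bipolar cells, against 1 and 0 in Müller glia. The fitted folds of Psmb8 and Psmb9 depend on the few rod UMIs.

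As a share of the 6 exchangeable catalytic subunits, the immunoproteasome genes took 59.5% (51.1% to 67.4%, exact Clopper-Pearson) and 34.7% (21.7% to 49.6%) of UMIs in microglia. Müller glia had 19.3% (12.3% to 27.9%) and 16.7% (7.92% to 29.3%). Rods had 0.980% and 1.05%, and cones 1.61% and 1.40%. Rod bipolar cells had 1.09% (0.226% to 3.15%) and 3.33% (0.916% to 8.31%) on 3 and 4 UMIs. The share was highest in microglia, then Müller glia, in both libraries. Under white light the intervals of these 2 overlapped, as did those of Müller glia and rod bipolar cells. In cells, 33 of 45 and 11 of 23 microglia held an immunoproteasome UMI, against 17 of 98 and 9 of 44 Müller glia. The same held for 14 of 399 and 6 of 170 cones and 3 of 115 and 3 of 46 rod bipolar cells. Of the shallower rods, the class that served as background, 0.633% and 0.832% held such a UMI. Microglial RNA in Müller glia was low: the microglia list summed to 54.8 and 51.4 CPM there, against 28183 and 20852 in microglia and 32.8 and 31.5 in rods, and C1qa, Csf1r, Tmem119, Trem2 and Aif1 had 0 UMIs.

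By pair, Psmb8 made up 66.2% (53.7% to 77.2%) and 56.2% (29.9% to 80.2%) of Psmb8 and Psmb5 UMIs in the microglia of the short-wavelength and the white-light library. Psmb9 made up 42.9% (29.7% to 56.8%) and 27.3% (10.7% to 50.2%) of its pair with Psmb6. Psmb10 made up 79.2% (57.8% to 92.9%) and 18.2% (2.28% to 51.8%) of its pair with Psmb7. Only the intervals of the Psmb10 pair did not overlap between the libraries, on 24 and 11 UMIs. All 3 shares were lower in the white-light library.

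**Figure D3:**
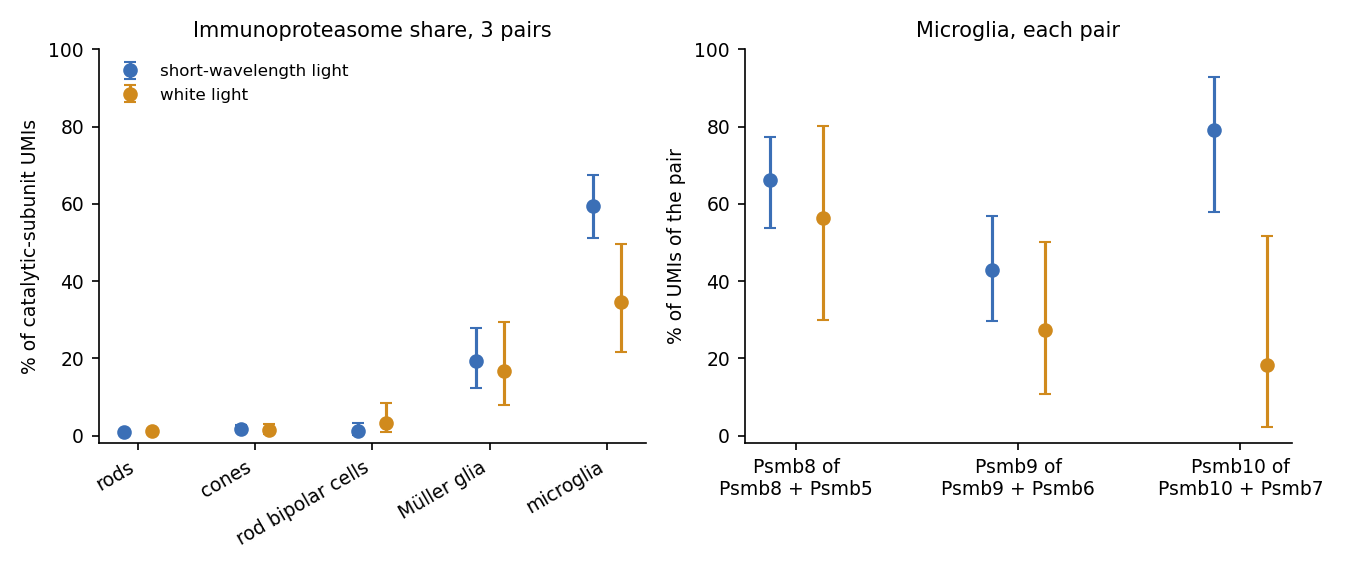
Left, UMIs of Psmb8, Psmb9 and Psmb10 as a percent of those 3 plus Psmb5, Psmb6 and Psmb7, by cell class and library. Right, the same for each pair in microglia; points are 1 library each and bars are exact 95% intervals, and microglia lie at 59.5% and 34.7% against under 4% in the 3 neuronal classes.

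Immunoproteasome RNA in microglia was higher in the short-wavelength library. The 3 genes summed to 281 CPM on 88 UMIs in 45 cells, against 101 CPM on 17 UMIs in 23 cells under white light, a ratio of 2.77 (1.64 to 4.97). Psmb8, with 45 and 9 UMIs, had a ratio of 2.68 (1.29 to 6.23), and it and Psmb2 were the 2 of 6 members with at least 50 UMIs in microglia that lay past the size threshold higher, a ratio over 1/0.8; 0 lay past it lower, under 0.8. Of the 2011 microglial genes with at least 50 UMIs 25.5% and 24.1% did, and 53.8% lay above 1 and 46.2% below, against 4 and 2 members. No single cell set the ratio: the most in 1 cell was 9 and 3 UMIs, and without the top cell of each library it was 2.97 (1.67 to 5.68). With each cell thinned to 1000 UMIs the ratio was 2.57 with an interval that held 1 (0.716 to 13.9), and the share of the immunoproteasome was 66.7% and 60%. Constitutive subunits differed less, with a core ratio of 1.08 (0.903 to 1.30) and a regulatory ratio of 0.947 (0.786 to 1.14). The makeup of the class differed too. Homeostatic microglial genes summed to 9366 and 6738 CPM, MHC class II and dendritic genes to 198 and 603, macrophage and monocyte genes to 176 and 245, interferon response genes to 368 and 298, and 5 lymphocyte genes to 0 in both. Pf4 had 14 UMIs in 2 cells and Mrc1 9 UMIs in 1 cell under white light, against 0 and 1 UMIs. Lyz2 of the same list went the other way, at 173 and 101 CPM in 21 and 12 cells. Ccr2, Ly6c2 and Cd163 had 0 UMIs in both. Of the MHC class II genes, H2-Aa and H2-Eb1 came from 1 white-light cell each, and Cd74 from 22 and 10 cells. The cone bipolar gene Grik1 had 64 UMIs under white light against 0, and rod markers took 14884 CPM against 8697. Their part in the ratio was not tested.

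Other genes of antigen presentation were described beside them. Of 13 genes of MHC class I presentation and interferon signalling, 12 were tested; 10 were higher than in rods in microglia and 10 in Müller glia, 0 lower in either, 6 higher in cones, and 1 higher (Tap2) and 1 lower (Stat2) in rod bipolar cells. The background of all genes higher was 18.3% in microglia, 20.9% in Müller glia, 19.0% in cones and 18.7% in rod bipolar cells. B2m, the light chain of MHC class I, was measured at 1046 and 806 CPM in microglia, 16.4 and 10.3 in Müller glia and 0.456 and 1.05 in rods. In microglia the list had a light ratio of 1.46 (1.30 to 1.64), smaller than that of the immunoproteasome; the difference was not tested. H2-K1, a classical MHC class I heavy chain, stood at 33.4 and 20.6 CPM in cones against 1.71 and 1.77 in rods, without a call for the immunoproteasome there.

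The activator PA28 showed a split between its 2 subunit genes. Psme1 and Psme2 encode its alpha and beta chains, which normally form 1 ring, and lie within a short stretch of chromosome 14 (55578123 to 55581529 and 55587441 to 55591113). Psme1 was higher than in rods in all 4 classes, and Psme1 was the only member for which this held; the cone call was lost with doublets kept (adjusted p = 0.0901 in edgeR). It was measured at 0.912 and 0.787 CPM in rods, 2.42 and 4.13 in cones (1.80, adjusted p = 0.0314, on 6 and 4 UMIs), 25.9 and 41.2 in rod bipolar cells (5.15, adjusted p = 7.49e-23), 21.9 and 27.4 in Müller glia (4.70, adjusted p = 4.52e-13) and 109 and 77.6 in microglia (6.76, adjusted p = 5.56e-42). The 2 photoreceptor classes were low and the other 3 classes high, with no overlap. Psme2 spanned a narrower range, between 6.85 and 64.0 CPM over all 10 sums: it stood at 14.7 and 14.0 CPM in rods and 64.0 and 47.7 in microglia (2.00, adjusted p = 5.99e-07), with 26.2 and 20.6 in cones (0.80, adjusted p = 0.00198). In rod bipolar cells it was at 16.8 and 10.3 CPM (adjusted p = 0.994) and in Müller glia at 18.3 and 6.85 (adjusted p = 0.892).

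Psme1 thus made up 5.85% (4.04% to 8.16%) and 5.31% (2.77% to 9.09%) of the UMIs of both genes in rods, and 8.45% and 16.7% in cones. The share was 60.6% (42.1% to 77.1%) and 80.0% (56.3% to 94.3%) in rod bipolar cells, 54.5% and 80.0% in Müller glia, and 63.0% and 61.9% in microglia. Rod bipolar cells stood with the non-neuronal classes in this, although their immunoproteasome share lay nearer those of the photoreceptors. Psme2b, a retrogene related to Psme2, had 11 and 7 UMIs in microglia and 0 in all other classes. Its position on chromosome 11 (48945354 to 48946190) overlaps 9930111J21Rik1 and Gm12185, and 33.3% of the 60-base words of the ends of Psme2 transcripts also occur in Psme2b, so counts of both are uncertain. Psme3, the nuclear PA28 gamma, was not called in any class, and Psmf1, a proteasome inhibitor, was lower in Müller glia (−1.04, adjusted p = 0.0436).

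Factors that work with the proteasome were described from a list of 16 partner genes. Of these, 4 were higher and 1 lower in cones, 4 and 5 in rod bipolar cells, 2 and 7 in Müller glia, and 7 and 1 in microglia. The background of all genes, for these and for the ubiquitin genes, was 19.0% higher and 18.4% lower in cones, 18.7% and 21.2% in rod bipolar cells, 20.9% and 22.2% in Müller glia, and 18.3% and 20.8% in microglia. Pomp, the chaperone that closes the core, was higher in cones (197 and 202 CPM against 78.6 and 82.4 in rods, log2 fold change 1.37), rod bipolar cells (151 and 162, 0.95) and microglia (179 and 203, 1.23). Sem1, a small lid protein, was higher in the same 3 classes, at 158 and 159, 172 and 183, and 185 and 161 CPM against 90.7 and 91.2. In cones Nfe2l1 and Txnl1 were the other partners that were higher and Uchl5 the lower one. In rod bipolar cells Nfe2l1 and Txnl1 were also higher, and Nfe2l2, Ddi2, Ngly1, Ube3c and Akirin2 lower. Ecpas and Nfe2l2 were higher in Müller glia, and Ube3c was lower in microglia. Of 14 genes of ubiquitin supply and shuttling, 8 were higher and 0 lower in cones, 5 and 0 in rod bipolar cells, 1 and 4 in Müller glia, and 5 and 0 in microglia. Sqstm1, a ubiquitin-binding autophagy receptor, was higher in all 4, with 11.6 and 13.6 CPM in rods and 560 and 400 in microglia. These partners were named after their values were seen.

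By light condition, core RNA in rods was lower in the short-wavelength library. The core sum was 1269 against 1364 CPM, a ratio of 0.930 (0.915 to 0.945) on 44513 and 20796 UMIs. All 14 core genes had a ratio below 1, where 47.3% of 12682 genes did and 52.7% lay above 1, but 0 lay past the size threshold (background 6.89% lower and 6.35% higher). Of the regulatory particle 11 of 17 were below 1, and its sum had a ratio of 0.978 (0.962 to 0.994). Core genes thus shared a direction with small differences, and the regulatory particle differed less. Ordered by the interval bound nearer to 1, which does not follow the ratio itself, the first below 1 were Psmb7 at 39.6 against 46.6 CPM (0.849, 0.775 to 0.930), Psmd6 at 37.8 against 44.4 (0.851, 0.775 to 0.935), Psmd11 at 112 against 126 (0.888, 0.841 to 0.939), Psma2 (0.902, 0.850 to 0.957) and Psma3 (0.923, 0.888 to 0.959). Above 1, in the same order, were Psmg2 at 68.0 against 59.0 CPM (1.15, 1.07 to 1.247), Psmc1 (1.11, 1.02 to 1.21), Psmd13 (1.09, 1.005 to 1.17), Psmg3 (1.10, 0.987 to 1.22) and Psmc6 (1.02, 0.980 to 1.06). Psmb10, at 1.88 and 2.36 CPM on only 66 and 36 UMIs, was the 1 member past the threshold lower. Its ratio of 0.797 lay just under the limit of 0.8, and it was chosen here after its value was seen. Assembly chaperones as a sum stood at 286 against 274 CPM (1.04, 1.01 to 1.08).

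**Figure D4:**
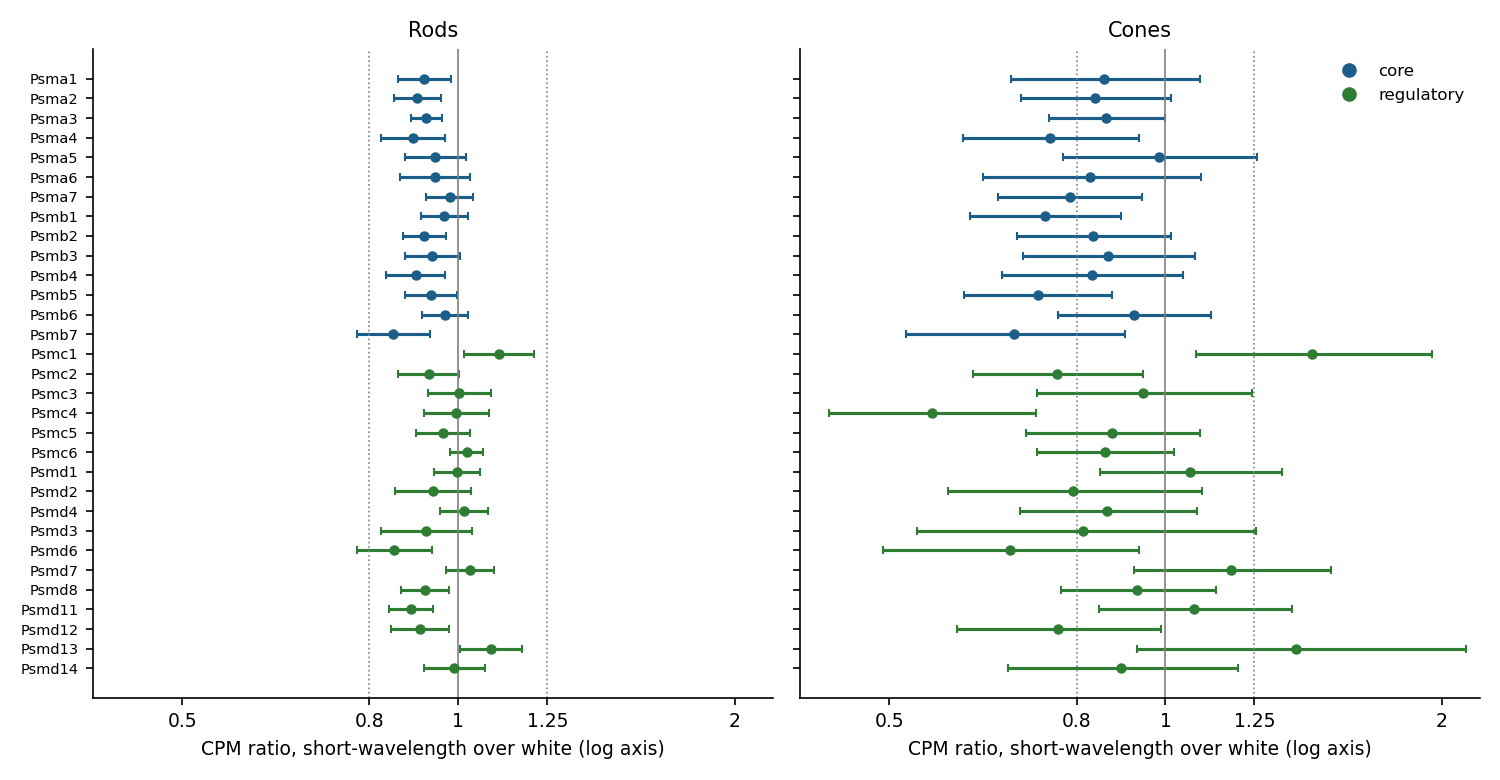
CPM in the short-wavelength library over CPM in the white-light library (log axis) for the 14 core and 17 regulatory particle genes in rods and in cones. Points are ratios of 1 library to 1 library, bars are 95% counting intervals and dotted lines mark ratios of 0.8 and 1/0.8; all core genes lie below 1 in both classes, and none passes a dotted line in rods.

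Rods with less Malat1 held more proteasome RNA, and the libraries differed in Malat1. Malat1 took 5.63% of rod UMIs under short-wavelength light and 5.08% under white light. With all rods of both libraries divided into 5 parts by Malat1 share, the core sum was 1802 and 1750 CPM in the part with least Malat1 (2.95% and 3.04% of UMIs), 1295 and 1322 in the next, 1170 and 1219 in the middle part, then 1130 and 1206, and 1115 and 1112 in the part with most (7.5% and 7.40%). The regulatory particle went from 1651 and 1634 CPM to 1247 and 1234. Both particles were thus lower toward the Malat1-rich end in both libraries, the core more than the regulatory particle. Mitochondrial RNA went the same way, from 2.13% and 1.80% of UMIs to 0.397% and 0.479%. Within parts, 4, 6, 12, 13 and 8 of the 14 core genes were below 1, with medians of 0.05, 0.01, −0.05, −0.13 and −0.03 on the log2 scale, against −0.10 over all rods. Of all genes with that depth, 5224 of 9787, 4691 of 10121, 4780 of 10185, 4787 of 10218 and 4635 of 9996 were below 1. The median over parts of the core ratio was 0.979, and that of the regulatory ratio 1.01, on the other side of 1 from the value over all rods.

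**Figure D5:**
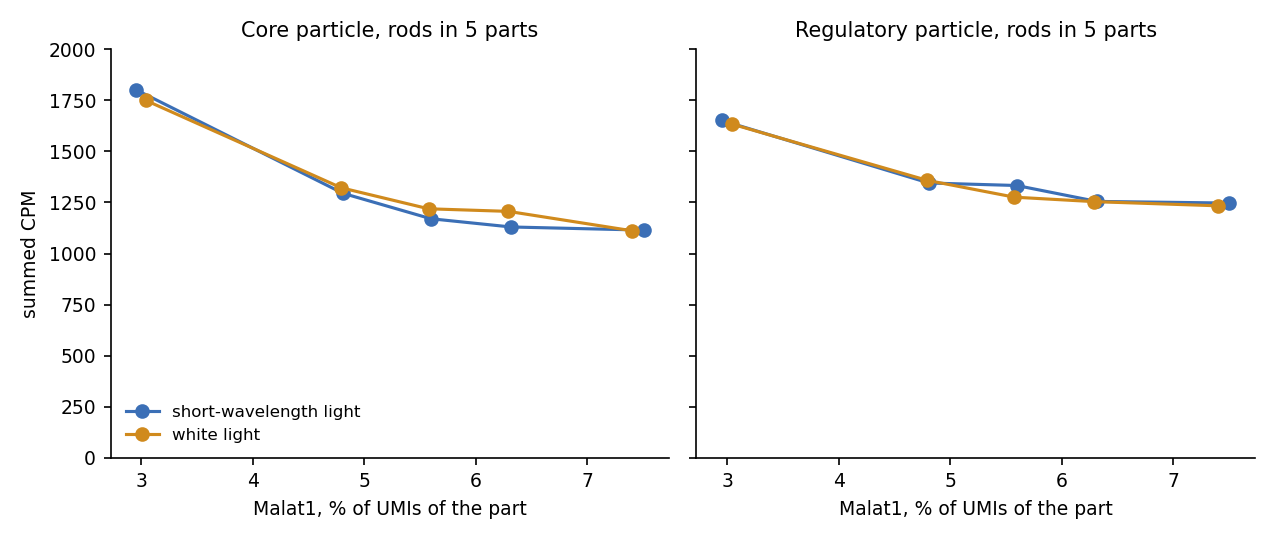
Summed CPM of the core and of the regulatory particle in rods divided into 5 parts by Malat1 share, plotted against the Malat1 percent of each part, for both libraries. Each point is 1 part of 1 library; the core goes from 1802 and 1750 CPM to 1115 and 1112, left to right, in the short-wavelength and white-light library.

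In cones the same direction was seen with ratios farther from 1. The core sum was 1717 against 2091 CPM, a ratio of 0.821 (0.779 to 0.866), and the regulatory sum 1511 against 1669, a ratio of 0.906 (0.854 to 0.960). All 14 core genes were below 1 (background 45.7%, with 54.3% above), and 5 lay past the threshold lower and 0 higher (background 10.9% and 16.5% of 8186 genes). Of the regulatory particle 5 lay past the threshold lower and 2 higher. Psmc4, an ATPase, was lowest by ratio at 59.2 against 106 CPM (0.556, 0.430 to 0.723). Next by the nearer interval bound, not by ratio, were Psmb5 (0.726, 0.604 to 0.875), Psmb1 at 130 against 177 CPM (0.739, 0.612 to 0.894), Psmb7 (0.685, 0.522 to 0.903) and Psmd6 (0.676, 0.493 to 0.935). Psmb6, the remaining catalytic subunit, stood at 150 against 162 CPM with an interval that held 1. The other direction held Psmc1 at 89.4 against 61.9 CPM (1.44, 1.08 to 1.95), Psme4 (1.33, 1.02 to 1.74), Psmd13 (1.39, 0.931 to 2.13), Psmd7 (1.18, 0.924 to 1.52) and Psmd1 (1.06, 0.848 to 1.34). ATPases of the base thus lay on both sides, with Psmc4 and Psmc1 at opposite ends.

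Cones also differed in Malat1, with 4.30% of UMIs against 3.65%. With cones divided into 2 parts by Malat1 share, the core ratio was 0.852 (0.788 to 0.923) and 0.860 (0.798 to 0.927), and the regulatory ratio 0.865 (0.792 to 0.945) and 0.990 (0.912 to 1.08). The core ratio was thus below 1 in both parts. Rod RNA in cones differed as well, with Gnat1 at 840 against 1279 CPM; its part in the ratio was not tested. With the first gate the core ratio was 0.875, and 0 members lay past the threshold in either direction. Ubiquitin supply genes as a sum stood at 3528 against 4532 CPM in cones (0.778, 0.751 to 0.807) and 2219 against 2495 in rods (0.889, 0.879 to 0.900), on the same side as the core. Partner genes were at 1.04 (0.971 to 1.10) in cones and 0.980 (0.964 to 0.997) in rods.

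In rod bipolar cells and Müller glia the intervals of both particle ratios held 1. The core ratio was 0.996 (0.907 to 1.09) in rod bipolar cells and 1.04 (0.887 to 1.22) in Müller glia, and the regulatory ratios were 0.967 (0.871 to 1.07) and 0.950 (0.811 to 1.11). In Müller glia 2 alternatives left out 1, the core ratio with the first gate (0.821, 0.704 to 0.959) and the regulatory ratio with cells thinned to 1000 UMIs (0.572, 0.377 to 0.876). Differences of the size seen in rods would not be detectable at this depth. In rod bipolar cells 34 members had at least 50 UMIs; 5 lay past the threshold lower and 6 higher, against 15.8% and 15.4% of 4552 genes. Below and above 1 lay 22 and 12 of them, against 49.5% and 50.5%. With the first gate 0 lay past the threshold lower and 1 higher, and the core and regulatory ratios were 1.03 and 0.986. Psmb1 at 145 against 203 CPM was the 1 member whose interval left out 1 (0.713, 0.530 to 0.963). Psmd1 (0.716), Psma3 (0.866), Psme4 (0.817) and Psmd12 (0.754) followed below 1 by the nearer bound, and Psmb6 (1.39), Psma6 (1.59), Psmc6 (1.30), Psmd11 (1.33) and Psma1 (1.28) above. In Müller glia 9 members had that depth, from Psmd11 at 0.651 (0.410 to 1.04) to Psma2 at 1.44 (0.811 to 2.68), 3 past the threshold each way (background 17.2% and 18.8%), 4 below 1 and 5 above (background 49.2% and 50.8%), and every interval held 1.

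The order of the 31 core and regulatory genes by level was largely shared between classes. Across these genes Spearman's rank correlation was 0.982 between the libraries in rods, 0.902 in cones, 0.885 in rod bipolar cells, 0.676 in Müller glia and 0.600 in microglia, and 0.745 to 0.877 between rods and another class in 1 library. These are descriptions over genes, which are not independent, and depth falls along the same order of classes. Psma8 of testis had 8 and 1 UMIs in rods and 1 and 0 in microglia, and Psmb11 of thymus 3 and 0 in rods and 0 and 4 in cones; both had 0 in the remaining classes. Psmb5 shares 54.9% of the 60-base words of its transcript ends with Gm3375, so its counts, and the folds and shares above that use them, are uncertain. In all, 17 members shared such words with another gene, among them Psma3 (21.5% with Gm13835), Psma5 (19.6% with Gm12989) and Psma4 (13.3% with Gm6542). Psma2 overlaps AW209491 and Psmd12 overlaps Gm11722 on the same strand, and both of these genes have a row in the matrices.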

How the data were processed

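Per the labels' protocols, retinal suspensions were run on the 10x Genomics platform with 3′ chemistry of a version they leave unsettled. The authors deposited whole-number UMI counts, untransformed, for each gene in each barcode. The matrices come from Cell Ranger 9.0.0 per the file headers; the submitters' processing notes name mm10. Whether introns were counted is not given in the sources used here. Members, lists and alternatives were chosen with earlier results of these data known.

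Barcodes with fewer than 300 genes or over 20% mitochondrial UMIs were dropped. The highest Scrublet scores (scanpy 1.11.5) were removed at 0.8% per 1000 barcodes in both libraries, which left 14023 and 5436 cells. Class markers found in over 20% of barcodes were left out. A class then needed at least 4 markers, 8 UMIs and 0.7% of UMIs from its list (rod bipolar cells also 0.2% from Prkca), no other gate met and fewer than 3 markers of each list of a further cell type. Rods needed 4 rod markers, no gate met and fewer than 3 markers of every other list. This replaced the gate first set down (4 markers, 8 UMIs) after marker UMIs were seen.

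Counts were summed per class and library. Light ratios are CPM ratios with exact conditional binomial intervals (scipy 1.17.1), on genes with at least 50 UMIs over both libraries; the threshold of 0.8 or 1/0.8 is a rule of size, not a test, and log2 ratios add 5 CPM. Class contrasts used edgeR 4.0.16 (quasi-likelihood, TMM, library as covariate) on genes with at least 20 UMIs. Both steps were tested on simulated data. Named members were all catalytic subunits, by class up to 5 called members per direction with the largest fold, and by light up to 5 per direction with the nearer interval bound farthest from 1. Alternatives were DESeq2 1.42.0, other scalings, filters and gates, thinned cells and doublets kept. Positions are those of GENCODE for mm10.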

Additional observations from a re-analysis of the deposited data

Results flagged for a closer look

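The light ratio of the immunoproteasome sum was 2.77 in microglia, with an interval above 1, and 0.869 in rods, with an interval of 0.587 to 1.30 that held 1. The 2 classes lay on opposite sides of 1 and their intervals did not overlap. With 1 library per condition the difference between the classes was not tested.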

How the results depend on the processing

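No paired analysis was possible because each light condition has 1 library and the labels give no replicate numbers shared between groups. Of 312 values of the main results recomputed, 250 stayed within the counting interval or within 1.5 times the count; the others are given here, and the cause was not tested. Among the 250, some values near 1 crossed it. The light ratio of the core in rod bipolar cells, 0.996, was 1.01 with doublets kept, 1.06 thinned and 1.03 with the first gate. That of the core in Müller glia, 1.04, was 0.948 with the gate of 6 markers and 0.939 thinned, and that of the regulatory particle in microglia, 0.947, was 1.06 with the first gate. Core over regulatory in Müller glia and microglia crossed 1 under some gates and on the log scale as well. The gates as first written and of 1.5% marker share, cones in 2 parts and microglia without their top cell were chosen after seeing the data.

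With the gate as first written, the light ratio of the core was 0.875 in cones and 0.821 (0.704 to 0.959) in Müller glia. Members past the size threshold by light numbered 1 higher in rods, 0 and 0 in cones, and 0 lower and 1 higher in rod bipolar cells. Core over regulatory UMIs was 0.956 and 1.01 in rods, 0.964 and 1.06 in cones (short-wavelength side reversed), 1.16 in short-wavelength rod bipolar cells and 1.31 in white-light Müller glia. The immunoproteasome share was 1.72% in white-light rods, 3.51% and 0% in rod bipolar cells and 11.9% in short-wavelength Müller glia. Members called against rods were 2 higher and 0 lower in cones, 3 and 2 in rod bipolar cells, and 15 lower in Müller glia. Of all 15108 genes, 1158 were higher and 262 lower in cones, 1579 and 1456 in rod bipolar cells, and 2635 lower in Müller glia. Psmb6 in cones turned to −0.014 on the log2 scale. The gate of 6 markers and 15 UMIs gave a rod class of the same size (6562 and 2330 cells), with 0.956, 1.01 and 1.72% again and 1 member higher in rods; it gave 1 member higher by light in cones and 3 lower in rod bipolar cells, core over regulatory of 1.09 and 1.16 in cones, and 1 and 2 members lower than rods in cones and rod bipolar cells. Of all 14936 genes under the gate of 6 markers, 1393 were lower in cones and 2548 in rod bipolar cells. The gate of 1.5% marker share left 18 members lower in Müller glia, and 2836 of all 15799 genes.

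With cells thinned to 1000 UMIs, the regulatory light ratio was 0.819 in rod bipolar cells and 0.572 (0.377 to 0.876) in Müller glia. Members past the size threshold numbered 2 lower in rods, 0 higher in cones, and 0 lower and 0 higher in rod bipolar cells. Core over regulatory was 0.959 in short-wavelength rods, 1.47 in short-wavelength rod bipolar cells and 0.683 in white-light Müller glia. The immunoproteasome share was 1.66% in white-light rods, 0% in white-light cones, 0% in short-wavelength rod bipolar cells, 30.8% in short-wavelength Müller glia and 60% in white-light microglia, so the difference between the microglia of the 2 libraries was not seen at that depth. By Malat1 part the rod ratios had medians of 0.979 for the core and 1.01 for the regulatory particle (reversed). Past 1.5-fold in place of that threshold, 0 members were lower in rods, 1 lower and 0 higher in cones, and 0 lower and 1 higher in rod bipolar cells. With doublets kept, 1 member was higher in rods and 2 in cones, and with a minimum of 20 UMIs 10 were higher in rod bipolar cells.

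DESeq2 called 1 member lower in cones, 1 in rod bipolar cells, 5 in Müller glia and 2 in microglia. Its splits of higher and lower members were 19 and 1, 17 and 1, 4 and 5, and 8 and 2. Over all genes they were 2279 and 1096, 3216 and 1589, 3742 and 1472, and 3291 and 1574. DESeq2 tested 14943 genes in cones and rod bipolar cells and 14635 in Müller glia and microglia. It put the all-gene median at −0.04, 0.11, 0.21 and 0.21 in cones, rod bipolar cells, Müller glia and microglia, against −0.13, −0.26, −0.27 and −0.60 in edgeR. With no low-count filter 8 members were higher in rod bipolar cells, and 2856 of all 23577 genes. Among single genes, Psme1 in cones was not called with doublets kept (adjusted p = 0.0901), and Psmd13 in cones and Psme4 in rod bipolar cells not with DESeq2 (0.124 and 0.583), the gate of 6 markers (0.0731 and 0.0995) or the first gate (0.841 and 0.225); Psme4 in cones was not called with the first gate (0.639). Leaving out either library turned no called member on the log2(CPM + 5) scale, a value with no test.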
